A study of Mus musculus with 2 samples.

Results

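The 10 genes described here encode the kinases CDK4 and CDK6 (Cdk4, Cdk6), the D cyclins that activate them (Ccnd1, Ccnd2, Ccnd3), the retinoblastoma protein RB that they phosphorylate (Rb1), and inhibitors of cyclin-dependent kinases of the CIP/KIP family (Cdkn1a for p21, Cdkn1b for p27) and the INK4 family (Cdkn2c for p18, Cdkn2d for p19). They were chosen by name, and all 10 are among the 32285 genes counted. When growth signals raise D cyclins, the CDK4 and CDK6 complexes phosphorylate RB, which then lets go of E2F transcription factors, and the genes for DNA replication are switched on. INK4 proteins bind CDK4 and CDK6 directly, whereas p21 and p27 bind cyclin-kinase complexes of several kinds. Palbociclib, a drug given in this study, blocks the kinase activity of CDK4 and CDK6, so these genes encode its targets and their partners.

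The data are 2 libraries of droplet-based 3′ v3 scRNA sequencing. Each holds live CD45+ immune cells sorted from tumors, 1 after lenvatinib alone and 1 after lenvatinib together with palbociclib (combo). Lenvatinib is an inhibitor of growth factor receptor kinases that is used against hepatocellular carcinoma (HCC). The tumors grew in male wild-type C57BL/6 J mice of 6 to 8 weeks, after plasmids for human MYC, a guide RNA against Trp53 and the sleeping beauty transposase had been injected into the tail vein. This injection places the plasmids in the liver, so the edited and MYC-expressing cells are the tumor cells of the Trp53KO/MYCOE model and not the immune cells measured here. Lenvatinib at 30 mg/kg was started 12 days after the plasmids and given for 25 days before the groups were formed, so both libraries come from mice that had received it, and palbociclib was given at 100 mg/kg. The number of mice behind each library is not given in the sources used here. Since each condition is a single library, the conditions could not be tested against each other, and library and treatment cannot be told apart.

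The lenvatinib library held 14509 barcodes with 98107503 UMIs (unique molecular identifiers, which count each captured molecule once), and the combo library held 11989 barcodes with 93583402 UMIs. Cells with over 6000 genes or over 25% of UMIs from mt- genes were removed, which left 14201 and 11613 cells with medians of 5541 and 5754 UMIs. A cell was gated to a type when it held at least 1 UMI of that type's marker and none of the other 5 markers. The markers were Cd3e for T cells, Ncr1 for NK cells, Cd79a for B cells, Csf1r for monocytes and macrophages, Csf3r for neutrophils and Flt3 for dendritic cells. This placed 65.8% of cells under lenvatinib and 64.6% under combo. The gates held 5173 and 3795 T cells, 2509 and 981 NK cells, 535 and 604 B cells, 192 and 432 monocytes/macrophages, 681 and 1468 neutrophils, and 249 and 217 dendritic cells under lenvatinib and combo. Cells with several markers, which include doublets and cells that use more than 1 marker, were 16.4% under lenvatinib and 23.0% under combo and were left out.

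In each gate every marker of its own list had UMIs in both libraries, and Ptprc, which encodes CD45, ranged from 449 CPM (the UMIs of a gene scaled to the usual common total of UMIs for every gate) in B-gated cells under combo to 2322 CPM in NK-gated cells under lenvatinib. Transcripts of neutrophils moved with the library in every gate. The 7 neutrophil markers, led by S100a8, summed to 394 CPM in T-gated cells under lenvatinib and 3050 CPM under combo, with Csf3r at 0 by the gate and the other 6 markers detected. The same sums were 465 and 7187 CPM in NK-gated cells, 350 and 10446 CPM in B-gated cells, 2444 and 18762 CPM in monocyte/macrophage-gated cells and 227 and 3994 CPM in dendritic-gated cells. In neutrophil-gated cells they were 118183 and 257812 CPM. The part of these transcripts in the differences between libraries given below was not tested.

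The genes lie apart in the genome (build mm10, whole gene bodies). The kinase genes are Cdk4 on chromosome 10 from 127063534 to 127067920 (plus strand) and Cdk6 on chromosome 5 from 3341485 to 3531008 (plus strand). The D cyclin genes are Ccnd1 on chromosome 7 from 144929931 to 144939925 (minus strand), Ccnd2 on chromosome 6 from 127125162 to 127152193 (minus strand) and Ccnd3 on chromosome 17 from 47505051 to 47599691 (plus strand). The CIP/KIP genes are Cdkn1a on chromosome 17 from 29090976 to 29100727 (plus strand) and Cdkn1b on chromosome 6 from 134920401 to 134925513 (plus strand), and the INK4 genes are Cdkn2c on chromosome 4 from 109660876 to 109667189 (minus strand) and Cdkn2d on chromosome 9 from 21288410 to 21291407 (minus strand). Since 3′ libraries count reads near the end of a transcript, the values do not separate isoforms.

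Cdk4 and Cdk6, the kinases that palbociclib inhibits, were ordered differently over the types. Levels are CPM of the summed UMIs of a gate, with exact Poisson 95% intervals that cover counting error only. Cdk4 was at 72.8 CPM (70.1 to 75.7) under lenvatinib and 77.6 CPM (74.1 to 81.1) under combo in T-gated cells. It was at 76.8 and 89.6 CPM in NK-gated cells, 75.0 and 122.6 CPM in dendritic-gated cells, 53.7 and 50.3 CPM in monocyte/macrophage-gated cells and 56.0 and 39.2 CPM in B-gated cells. Neutrophil-gated cells had the lowest Cdk4 level in both libraries, at 28.9 and 19.9 CPM. The library values of dendritic, NK and T-gated cells overlapped between neighbours in this order and lay above those of the other 3 types.

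Cdk6 was highest in T-gated cells in both libraries, at 130.6 CPM (126.9 to 134.4) under lenvatinib and 110.2 CPM (106.0 to 114.4) under combo, and the next type, dendritic-gated cells, stood apart at 78.2 and 92.6 CPM. NK-gated cells followed at 81.8 and 75.7 CPM, and monocyte/macrophage and neutrophil-gated cells lay between 33.6 and 51.0 CPM. B-gated cells held 61.5 CPM under lenvatinib and 13.2 CPM under combo, the highest and the lowest values of the last 3 types. Of all Cdk4 and Cdk6 UMIs of a gate, Cdk6 made up 64.2% and 58.7% in T-gated cells, 51.6% and 45.8% in NK-gated cells, 61.9% and 62.8% in neutrophil-gated cells, and 52.3% and 25.1% in B-gated cells. These shares compare types and not the genes with each other, since 3′ capture differs between transcripts.

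**Figure D1:**
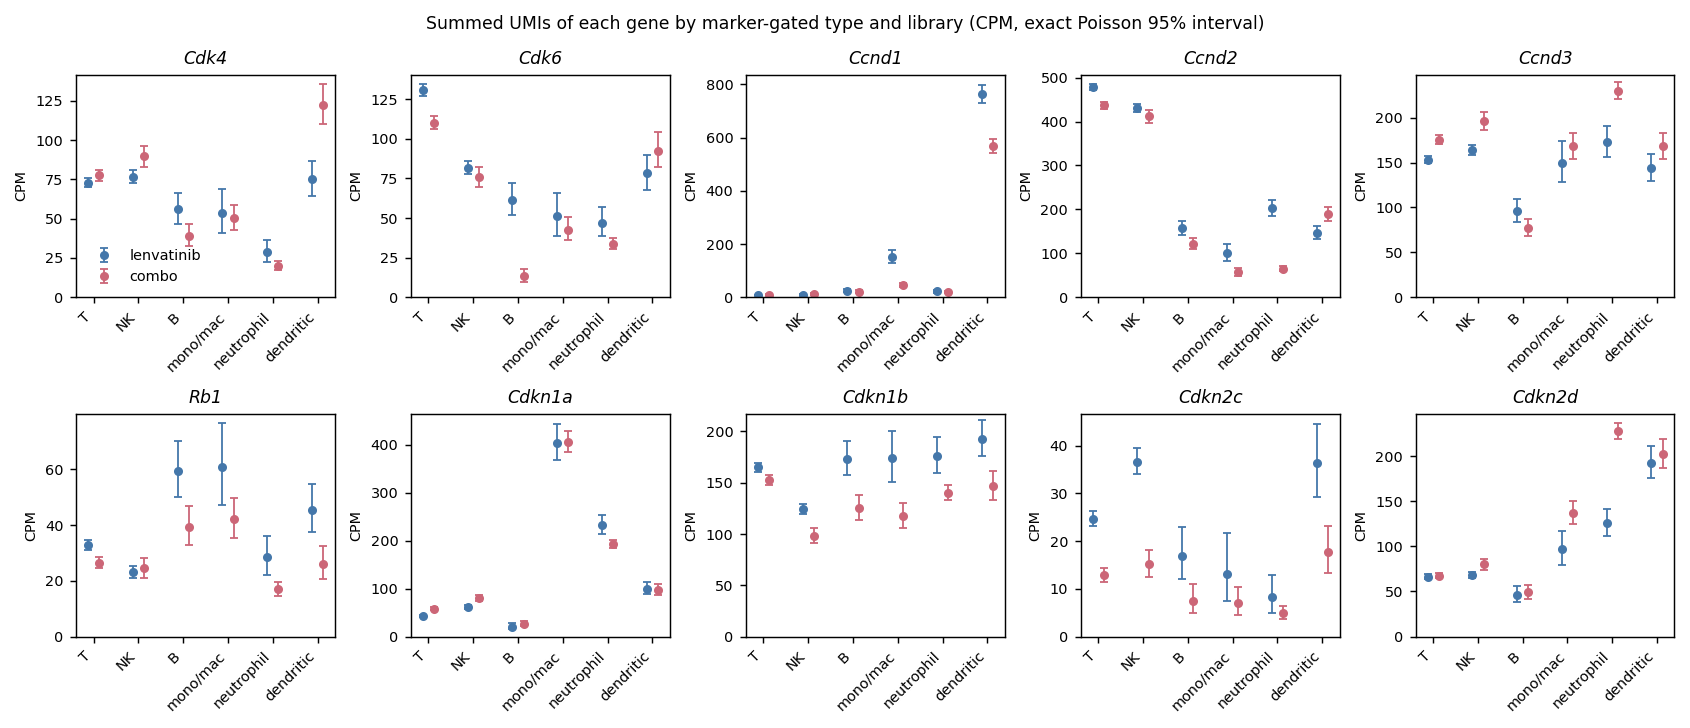
Levels of the 10 genes (CPM, linear axes from 0) in 6 marker-gated types, with 1 point per library (lenvatinib in blue, combo in red) and exact Poisson 95% intervals of the counts. Ccnd1 stands at 762 and 567 CPM in dendritic-gated cells and at 8.35 and 9.5 CPM in T-gated cells.

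The D cyclins, which activate the kinases, had unlike distributions over the types. Ccnd1 was at 762 CPM (728 to 797) under lenvatinib and 567 CPM (540 to 594) under combo in dendritic-gated cells. It was at 151 and 45.2 CPM in monocyte/macrophage-gated cells, from 19.6 to 25.3 CPM in B- and neutrophil-gated cells, and from 8.35 to 12.6 CPM in T- and NK-gated cells. Ccnd2 was instead highest in T- and NK-gated cells, with 478 and 437 CPM in T-gated cells and 430 and 411 CPM in NK-gated cells, against 189 CPM or less in B-, dendritic- and monocyte/macrophage-gated cells and 203 and 65.2 CPM in neutrophil-gated cells. Ccnd3 was close to even, from 144 to 230 CPM in 5 of the types, and was lower in B-gated cells at 96.0 and 76.8 CPM. The Ccnd3 library values of neutrophil, NK, T, monocyte/macrophage and dendritic-gated cells overlapped between neighbours.

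As shares of all D cyclin UMIs of a gate, Ccnd2 made up 74.8% and 70.3% in T-gated cells and 71.3% and 66.3% in NK-gated cells under lenvatinib and combo. Ccnd1 made up 72.3% and 61.4% in dendritic-gated cells, and 1.31% and 1.53% in T-gated cells. B-gated cells as a whole gave nearly the same shares in both libraries, with Ccnd2 at 56.5% and 55.4%, Ccnd3 at 34.4% and 35.0%, and Ccnd1 at 9.06% and 9.54%. This was not so in B-gated cells without UMIs of Cd3d, Cd3g, Trac, Trbc2 and Lck, a subset chosen after values had been seen. They held 11, 179 and 105 UMIs of Ccnd1, Ccnd2 and Ccnd3 under lenvatinib, and 37, 97 and 155 under combo. The makeup of the myeloid gates differed between libraries. Ccnd3 was 43.4% (40.2% to 46.7%, exact Clopper-Pearson 95% interval) of neutrophil D cyclin UMIs under lenvatinib and 73.1% (71.5% to 74.6%) under combo, and 37.3% and 62.2% in monocyte/macrophage-gated cells.

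**Figure D2:**
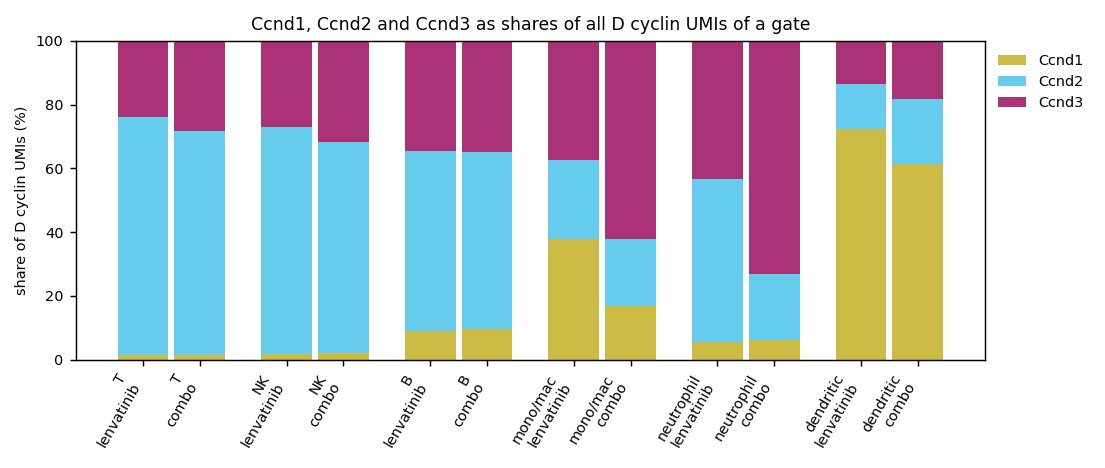
Shares of Ccnd1, Ccnd2 and Ccnd3 among all D cyclin UMIs of each gated type (percent, bars from 0 to 100), with 1 bar per library. Ccnd2 makes up most D cyclin UMIs in T- and NK-gated cells, Ccnd1 in dendritic-gated cells and Ccnd3 in neutrophil- and monocyte/macrophage-gated cells under combo.

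Detection in single cells was compared at a fixed depth of 2000 UMIs per cell, to which deeper cells were thinned. Ccnd1 was then detected in 61.8% and 56.7% of dendritic-gated cells, against 0.886% and 1.22% of T-gated and 1.62% and 0.722% of NK-gated cells. Ccnd2 was detected in 57.4% and 53.8% of thinned T-gated cells and in 16.1% and 10.0% of monocyte/macrophage-gated cells. Cdk6 was detected in 22.1% and 18.1% of thinned T-gated cells and in 4.27% and 2.93% of neutrophil-gated cells. This depth left out 317 and 107 T-gated cells, and 189 and 101 neutrophil-gated cells. Without thinning, 2.47% and 2.90% of T-gated cells held a Ccnd1 UMI, against 82.3% and 88.9% of dendritic-gated cells, at medians of 6019 and 5478 UMIs per T-gated cell and 9088 and 11631 per dendritic-gated cell.

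Rb1, which encodes the substrate RB, was low throughout. It was at 60.7 CPM (47.2 to 76.8) and 42.1 CPM (35.4 to 49.7) in monocyte/macrophage-gated cells and 59.4 and 39.5 CPM in B-gated cells. Dendritic-gated cells held 45.6 and 26.1 CPM, T-gated cells 32.8 and 26.4 CPM, NK-gated cells 23.1 and 24.5 CPM and neutrophil-gated cells 28.5 and 17.0 CPM. The values of monocyte/macrophage, B, dendritic and T-gated cells overlapped between neighbours, as did those of NK and neutrophil-gated cells. Rb1 (chromosome 14, 73183673 to 73325822 of mm10) overlaps Gm17233 on the same strand, so reads of the 2 genes may not be fully separated.

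The CIP/KIP inhibitors differed in how they were distributed. Cdkn1a, the p53-responsive inhibitor p21, was at 405 CPM (368 to 443) and 407 CPM (385 to 429) in monocyte/macrophage-gated cells. It was at 234 and 193 CPM in neutrophil-gated cells, 99.98 and 97.2 CPM in dendritic-gated cells, 61.8 and 79.6 CPM in NK-gated cells, 43.6 and 58.1 CPM in T-gated cells, and 20.6 and 27.2 CPM in B-gated cells. Each of these 6 types stood apart from the next in both libraries. Cdkn1b, the inhibitor p27, spanned only 98.5 to 193 CPM over the 12 profiles (6 types in 2 libraries), and the library values of each type overlapped those of the next.

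Both INK4 inhibitors were detected in every gate. Cdkn2c was at 24.7 CPM (23.1 to 26.4) and 12.9 CPM (11.5 to 14.4) in T-gated cells, 36.6 and 15.1 CPM in NK-gated cells, and 36.3 and 17.7 CPM in dendritic-gated cells. It was at or below 16.8 CPM in B-, monocyte/macrophage- and neutrophil-gated cells, with the lowest values, 8.19 and 4.90 CPM, in neutrophil-gated cells, and combo was the lower library in every type. Cdkn2d was at 193 CPM (176 to 211) and 202 CPM (187 to 219) in dendritic-gated cells and at 126 and 228 CPM in neutrophil-gated cells, so the former were highest under lenvatinib and the latter under combo. It was at 96.7 and 137 CPM in monocyte/macrophage-gated cells, and T, NK and B-gated cells lay between 46.3 and 80.0 CPM. Of all INK4 UMIs of these 2 genes, Cdkn2c made up 35.0% and 15.9% in NK-gated cells, 27.1% and 16% in T-gated cells, and 6.11% and 2.11% in neutrophil-gated cells.

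The highest type was the same in both libraries for 6 of the 10 genes. Over the 12 profiles and among 4837 genes with at least 50 CPM in 1 of them, the genes most like Ccnd1 on the log2(CPM + 1) scale were Clec9a, Slamf9 and Ddr1, with Pearson r of 0.983, 0.982 and 0.981. Clec9a encodes a receptor of dendritic cells. Those most like Ccnd2 were H2-Q7, Rasal3 and Tox (0.956, 0.948 and 0.946), and those most like Cdk4 were E2f4, Erh and Uqcrc2 (0.984, 0.98 and 0.979). For Cdkn2c they were Atp8b2, Nup210 and Cbx5 (0.947, 0.941 and 0.937), and for Cdkn1a they were Tnfrsf21, Plin2 and Vav3 (0.973, 0.959 and 0.959). Those most like Cdk6 were Racgap1, Atp2b4 and Ing2 (0.907, 0.906 and 0.894), those most like Ccnd3 were Impa2, Pdcd6 and Slc25a24 (0.982, 0.942 and 0.94), and those most like Rb1 were Epb41l2, Lats2 and Ikbkb (0.909, 0.908 and 0.896). For Cdkn2d they were Timm10b, Rtf2 and Gnai2 (0.937, 0.927 and 0.920), whereas for Cdkn1b the values were lowest, at 0.866, 0.819 and 0.814 for 9930111J21Rik2, Fkbp15 and Zfp131. These correlations are descriptions, since the 6 profiles of a library share its depth and its free RNA.

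Cycling cells were then compared with non-cycling cells of the same gate and library, a comparison that the 2 libraries repeat. A cell was called cycling when it held UMIs of at least 2 of 10 mitosis genes (Mki67, Top2a, Cdk1, Ccnb1, Ccnb2, Cenpf, Ube2c, Birc5, Tpx2 and Aurkb), none of which is among the 10 genes. Cycling cells made up 16.6% (15.6% to 17.6%) of T-gated cells under lenvatinib and 4.64% (3.99% to 5.36%) under combo, a ratio of 0.280 (0.226 to 0.344, the extremes that the 2 intervals allow). The ratio was 0.510 when 1 mitosis gene was enough for the call and 0.731 when S-phase genes made it. In NK-gated cells the shares were 16.1% and 6.01%, and in B-gated cells 7.29% and 2.65%. They were 13% and 12.5% in monocyte/macrophage-gated cells, 4.41% and 3.81% in neutrophil-gated cells, and 16.5% and 16.1% in dendritic-gated cells, where the intervals of the libraries overlapped. After thinning to 2000 UMIs, the shares in T-gated cells were 8.71% and 2.14%, and those in NK-gated cells 7.15% and 2.27%. In B-gated cells they were 3.35% (1.93% to 5.39%) and 1.41% (0.611% to 2.76%), on 16 and 8 cycling cells, and these intervals overlapped.

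Cdk4 and Cdkn2c were the genes at least 1.5-fold higher in cycling than in non-cycling T-gated cells in both libraries, 2 of 10, whereas 6.97% of 10438 genes with at least 50 UMIs in each library were. Cdk4 was at 100.8 CPM in cycling and 63.0 CPM in non-cycling T-gated cells under lenvatinib, a ratio of 1.60 (1.48 to 1.74), and at 139.4 and 71.5 CPM under combo, a ratio of 1.95 (1.72 to 2.21). Cdkn2c, an inhibitor of the same kinases, was at 52.2 and 15.0 CPM under lenvatinib, a ratio of 3.49 (3.05 to 3.99), and at 27.9 and 11.4 CPM under combo, a ratio of 2.45 (1.82 to 3.26). The call of Cdkn2c was lost when S-phase genes defined cycling cells, and that of Cdk4 with the stricter cell filter, without the 5% of cells with most UMIs or when 1 mitosis gene was enough. Cycling cells were deeper, with medians of 9734.5 UMIs against 5582 under lenvatinib and 11076.5 against 5342 under combo in T-gated cells.

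No gene of the 10 was at least 1.5-fold lower in cycling T-gated cells in both libraries, a side that held 2.66% of genes. Cdkn2d (1.57 and 1.49) and Rb1 (1.44 and 1.59) were higher in cycling T-gated cells of both libraries and passed 1.5-fold in 1 of them. Ccnd2 (0.620 and 0.685), Cdkn1b (0.749 and 0.604) and Ccnd1 (0.724 and 0.564) were lower in both, although the Ccnd1 value under combo rests on 12 UMIs in cycling cells and its interval (0.287 to 1.005) includes 1. Cdk6 had ratios of 0.981 and 1.26, Ccnd3 of 0.968 and 1.07, and Cdkn1a of 1.32 and 0.991, so these 3 genes gave no common direction.

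Over all gates, Cdk4 and Cdkn2c were higher in cycling cells in 12 of 12 profiles, whereas 7.71% of 7196 genes with at least 10 UMIs in each profile were. The ratios of Cdk4 ran from 1.48 in NK-gated cells under lenvatinib to 5.75 in neutrophil-gated cells under lenvatinib, and those of Cdkn2c from 1.12 in dendritic-gated cells under combo to 14.5 in neutrophil-gated cells under combo. The Cdkn2c interval included 1 in 4 of these profiles, namely B-gated cells under combo (3 cycling UMIs), monocyte/macrophage-gated cells under lenvatinib and dendritic-gated cells of both libraries. Cdkn1b, the p27 gene, was lower in cycling cells in 10 of 12 profiles, against 21% of genes that were lower in at least as many, with monocyte/macrophage-gated cells under lenvatinib (1.26) and dendritic-gated cells under combo (1.01) as the exceptions. For Cdk4, Cdk6 and Cdkn2c the highest ratios were in neutrophil-gated cells, where cycling cells numbered only 30 and 56. In them Cdk6 was at 164 CPM in cycling and 27.2 CPM in non-cycling cells under lenvatinib and at 104 and 25.1 CPM under combo, ratios of 6.03 (4.07 to 8.95) and 4.13 (3.28 to 5.17). Cdkn1a had ratios of 0.274 (0.174 to 0.413) and 0.697 (0.588 to 0.820) in the same cells, Cdkn2c of 10.2 and 14.5, and Cdkn1b of 0.486 and 0.319. Cycling neutrophil-gated cells had medians of 6312.5 UMIs against 2489 in non-cycling ones under lenvatinib and 18563.5 against 4591 under combo. The part of doublets in the neutrophil-gated ratios was not tested.

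The D cyclins went different ways in cycling cells of different types. In B-gated cells, of which only 39 and 16 were cycling, Ccnd2 was at 203 CPM in cycling and 144 CPM in non-cycling cells under lenvatinib and at 249.99 and 107 CPM under combo, ratios of 1.41 and 2.33, opposite to those of T- and NK-gated cells. Cycling B-gated cells had medians of 11914 UMIs against 3096 in non-cycling ones under lenvatinib and 17213.5 against 3467 under combo. The part of doublets in the B-gated ratios was not tested. Ccnd1 in dendritic-gated cells was at 526 and 849 CPM under lenvatinib and at 299 and 661 CPM under combo, ratios of 0.619 (0.550 to 0.696) and 0.452 (0.392 to 0.520). Ccnd3 in monocyte/macrophage-gated cells had ratios of 1.53 (1.09 to 2.12) and 1.77 (1.48 to 2.12). Some D cyclin ratios instead turned between the libraries of a gate. Ccnd3 in B-gated cells was at 1.70 (1.28 to 2.25) under lenvatinib and 0.358 (0.169 to 0.669) under combo. Ccnd2 in neutrophil-gated cells was at 0.737 (0.541 to 0.985) and 1.47 (1.18 to 1.82). Ccnd1 in monocyte/macrophage-gated cells was at 2.64 (1.93 to 3.61) and 0.855 (0.545 to 1.30). Cdkn2d in dendritic-gated cells had ratios of 0.444 and 0.720, below 1 where those of T-gated cells were above it.

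**Figure D3:**
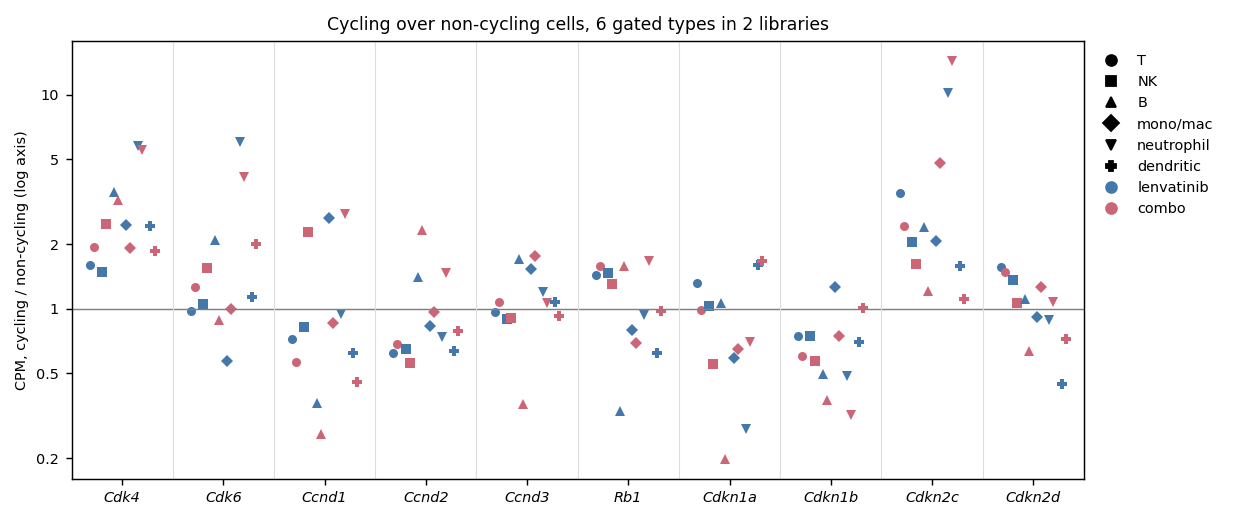
Ratio of CPM in cycling over non-cycling cells (log axis) for the 10 genes, with 1 point per gated type (symbol) and library (lenvatinib in blue, combo in red). All 12 points of Cdk4 (1.48 to 5.75) and of Cdkn2c (1.12 to 14.5) lie above 1, and 10 of 12 points of Cdkn1b lie below it.

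The promoters of Cdk4 and Cdkn2c, which were higher in cycling cells in every profile, and of Cdk6, the other kinase, are shown as the 250 bases before a RefSeq start (build GRCm38.p6). RefSeq windows were matched for 7 of the 10 genes, with 10 windows of 300 bases in all. Windows were searched on both strands for the E2F letters TTTCCCGC, TTTCGCGC, TTTGCCGC and TTTGGCGC, and for CACGTG, the E-box letters, which read the same on both strands. None of the 10 windows held the E2F letters, against 2.26% of 32851 promoters and 6 of 18 windows of the E2F target genes listed below. CACGTG stood in 3 of the 10 windows and in 7.15% of all promoters. In the sequences, written 5′ to 3′ on the strand of the gene, capitals mark CACGTG. The windows lie at chr10:127063285-127063534 (plus strand), chr5:3343643-3343892 (plus strand) and chr4:109666757-109667006 (minus strand).
Cdk4: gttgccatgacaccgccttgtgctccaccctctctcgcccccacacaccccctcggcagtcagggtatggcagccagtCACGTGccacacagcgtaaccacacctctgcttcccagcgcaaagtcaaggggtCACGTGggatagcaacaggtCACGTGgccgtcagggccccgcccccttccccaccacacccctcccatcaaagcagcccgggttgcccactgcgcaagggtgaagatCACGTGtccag
Cdk6: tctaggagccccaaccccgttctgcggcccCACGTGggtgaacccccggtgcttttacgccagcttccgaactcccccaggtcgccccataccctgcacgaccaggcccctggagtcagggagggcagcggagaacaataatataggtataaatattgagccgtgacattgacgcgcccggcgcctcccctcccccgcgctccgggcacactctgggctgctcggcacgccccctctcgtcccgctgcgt
Cdkn2c: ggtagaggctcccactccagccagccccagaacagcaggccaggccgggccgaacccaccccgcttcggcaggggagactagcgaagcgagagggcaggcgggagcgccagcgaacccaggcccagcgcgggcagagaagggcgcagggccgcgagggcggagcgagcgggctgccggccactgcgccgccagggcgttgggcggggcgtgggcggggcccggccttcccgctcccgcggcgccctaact
The Cdk4 window holds the letters at 4 places, the nearest beginning 11 bases before the start and the farthest 172 bases before it. The Cdk6 window holds them once, 220 bases before the start. The Cdkn2c window shown holds none, and a window at a second RefSeq start of that gene holds them once, after that start. These matches are descriptions of the letters and not of binding.

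The libraries were then compared for the question whether the genes of the CDK4/6 pathway differ in immune cells between combo and lenvatinib. A gene was evaluated in a gate when it held at least 50 UMIs over both libraries, which 59 of the 60 pairs of gene and type did. Combo was at least 1.5-fold higher in 2 pairs and at least 1.5-fold lower in 12, and 45 pairs lay within 1.5-fold. The median over all evaluated genes was itself below 0 on the log2 scale, at -0.15 in T-gated, -0.13 in NK-gated, -0.42 in B-gated, -0.14 in monocyte/macrophage-gated, -0.54 in neutrophil-gated and -0.08 in dendritic-gated cells. Relative to that median, 5 pairs were higher and 9 lower. No share of all genes was computed in that way. The shares that follow are for ratios not taken relative to the median. The background share of genes at least 1.5-fold higher was 5.85% in T-gated, 5.36% in NK-gated, 2.85% in B-gated, 7.64% in monocyte/macrophage-gated, 4.59% in neutrophil-gated and 5.83% in dendritic-gated cells. The share at least 1.5-fold lower was 13.5%, 13.3%, 37.8%, 18.4%, 47% and 13.2% in the same order, so that lower pairs in B- and neutrophil-gated cells stand against a high background. Of the evaluated genes, 1 of 10, 1 of 10, 3 of 10, 2 of 9, 3 of 10 and 2 of 10 were lower in that order. These counts are below the share of all genes in T-, NK-, B- and neutrophil-gated cells, and above it in monocyte/macrophage- and dendritic-gated cells.

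Cdkn2c made up 5 of the 12 lower pairs. The ratio of combo to lenvatinib was 0.520 (0.456 to 0.593) in T-gated cells, 0.412 (0.337 to 0.502) in NK-gated cells, 0.488 (0.341 to 0.693) in dendritic-gated cells, 0.444 (0.258 to 0.750) in B-gated cells and 0.598 (0.348 to 1.07) in neutrophil-gated cells. Its 15 and 23 UMIs in monocyte/macrophage-gated cells were too few to evaluate. In non-cycling T-gated cells the Cdkn2c ratio was 0.760 (0.646 to 0.892), within 1.5-fold, whereas it was 0.534 (0.401 to 0.699) in cycling T-gated cells and 0.475 (0.376 to 0.596) in non-cycling NK-gated cells. The neutrophil value rests on 19 and 52 UMIs, and among cells with at least 2 UMIs of Csf3r its ratio was 1.40.

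Direction was shared by all types for 3 genes. Cdkn2c, with ratios from 0.412 to 0.598, and Cdkn1b, with ratios from 0.675 to 0.927, were lower under combo in 6 of 6 types, as were 31.4% of 8306 genes with at least 20 UMIs in each gate. Relative to the median of all genes Cdkn1b was above 1 in T-gated (1.03) and neutrophil-gated cells (1.16). Cdkn2d was higher under combo in 6 of 6 types, from 1.02 in T-gated to 1.81 in neutrophil-gated cells, as were 3.23% of genes, and the T-, B- and dendritic-gated intervals of Cdkn2d included 1. In non-cycling dendritic-gated cells Cdkn2d was at a ratio of 0.965 (0.844 to 1.10), and with at least 2 UMIs of the gate marker it was below 1 in T-, B- and dendritic-gated cells (0.999, 0.867 and 0.982).

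The higher pairs were Cdkn2d in neutrophil-gated and Cdk4 in dendritic-gated cells. Cdkn2d in neutrophil-gated cells had a ratio of 1.81 (1.60 to 2.05), and 1.76 (1.55 to 2.02) in the non-cycling cells of that gate. The gate was split in 2 ways by single UMIs, first by Ltf, Camp and Ngp, genes of secondary granules that mark immature neutrophils. Cells with these genes were 22.8% of the gate under lenvatinib and 69.4% under combo. At 2000 UMIs per cell the shares were 22.2% and 53.5%, but T-gated cells, which should lack these genes, held them in 7.89% and 27.3% of cells, and the part of such transcripts in this split was not tested. Cdkn2d was within 1.5-fold on both sides of it, at 1.43 (1.21 to 1.69) in cells with these genes and 1.27 (1.02 to 1.59) in cells without them. Cdkn1a, with a ratio of 0.825 (0.750 to 0.909) over the whole gate, was at 1.17 (0.962 to 1.43) and 1.5 (1.33 to 1.69). Cdkn1b was at 0.868 (0.721 to 1.05) and 1.18 (1.01 to 1.38), the latter opposite to its ratio over the whole gate.

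Ptgs2, an inflammatory gene, gave the second split, and was found in 63.4% and 47.8% of neutrophil-gated and 2.07% and 2.48% of T-gated cells without thinning. Cdkn2d was past 1.5-fold on both sides of it, at 1.68 (1.39 to 2.03) in cells with Ptgs2 and 1.76 (1.5 to 2.09) in cells without it. Cdkn1a was at 1.11 (0.99 to 1.246) and 0.696 (0.585 to 0.832). The call of Cdkn2d and the direction of Cdkn1a thus depended on the split. These subsets, and those of B, monocyte/macrophage and dendritic-gated cells below, were chosen after values had been seen.

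Cdk4 in dendritic-gated cells had a ratio of 1.64 (1.37 to 1.96), and 1.85 (1.45 to 2.37) in non-cycling cells. It was 1.41, within 1.5-fold, when other markers were allowed in the gate. The 3 basophil markers, led by Mcpt8, summed to 1.61 CPM in this gate under lenvatinib, with Fcer1a at 0, and to 94.2 CPM under combo, and their part in the Cdk4 difference was not tested. In cells with Xcr1 or Clec9a, genes of type 1 conventional dendritic cells, it was at 82.1 and 126 CPM, a ratio of 1.54 (1.2 to 1.97). In cells with Siglech, a gene of plasmacytoid dendritic cells that 59.8% and 62.7% of dendritic-gated cells held, it was at 65.6 and 70.8 CPM, a ratio of 1.08 (0.81 to 1.44). In cells with Cd209a it was at 52.6 and 64.8 CPM, a ratio of 1.23 (0.78 to 1.96). In the 24 and 27 cells with Ccr7, a receptor of migratory dendritic cells, it was at 98.4 and 213 CPM, a ratio of 2.17 (1.32 to 3.72). Cells with Ccr7 were 9.64% and 12.4% of this gate and 4.07% and 5.2% of the shallower NK-gated cells. Ccnd1 was at 1025 and 836 CPM in the Siglech subset. Cdk6 had a ratio of 1.18 (0.981 to 1.43) over the whole dendritic gate. In the Xcr1 or Clec9a, Cd209a, Siglech and Ccr7 subsets its ratios were 0.749, 0.595, 0.603 and 0.913. Under combo Cdk6 stood at 54.8, 38.9, 45.7 and 108 CPM in the same order, against 92.6 CPM over the gate. These subsets share cells.

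**Figure D4:**
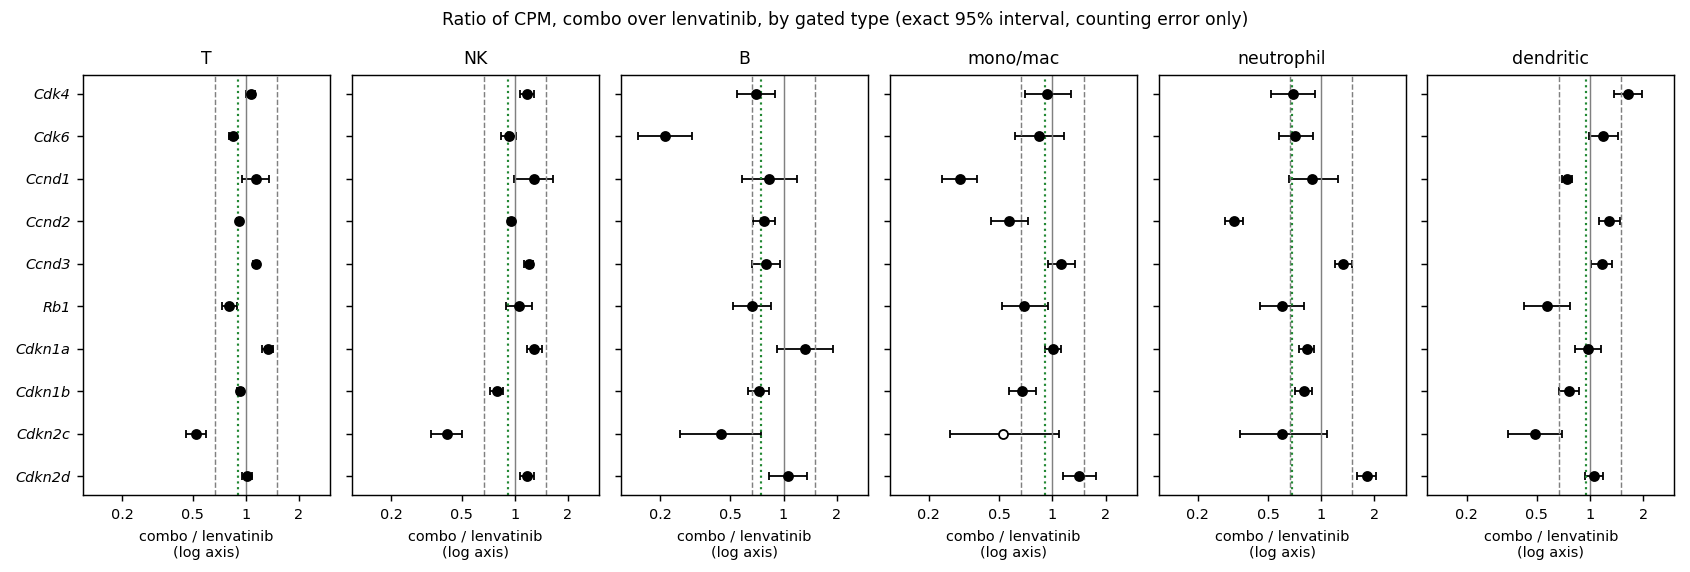
Ratio of CPM, combo over lenvatinib (log axis), for the 10 genes in 6 gated types, with exact 95% intervals of the counts. Dashed lines mark 1.5-fold either way, the dotted line is the median of all genes in the gate, the solid line is 1, and the open point (15 and 23 UMIs) was not evaluated. Cdkn2c lies left of 1 in all 6 panels and Cdkn2d right of it.

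In myeloid gates the lower pairs included Ccnd2 in both and Ccnd1 in monocyte/macrophage-gated cells. Ccnd2 in neutrophil-gated cells was at 203 CPM under lenvatinib and 65.2 CPM under combo, a ratio of 0.322 (0.286 to 0.363). The 7 T cell markers, led by Trbc2, summed to 318 CPM in this gate under lenvatinib and 144 CPM under combo, with Cd3e at 0 by the gate and the other 6 detected, and their part in the Ccnd2 difference was not tested. The Ccnd2 ratio was 0.461 (0.374 to 0.573) in cells with Ltf, Camp or Ngp and 0.447 (0.371 to 0.537) in cells without them. Ccnd1 in monocyte/macrophage-gated cells had a ratio of 0.299 (0.238 to 0.374) and Ccnd2 of 0.571 (0.450 to 0.727). With at least 2 UMIs of Csf1r they were 0.643 and 0.706, and the latter lies within 1.5-fold. In this gate the T cell markers, with Cd3e at 0, summed to 263 CPM under lenvatinib and 149 CPM under combo. Their part in the Ccnd2 difference was not tested. Of the 114 Ccnd2 UMIs under lenvatinib, 37.7% came from 5 of 192 cells. Of the 189 under combo, 23.8% came from 5 of 432 cells. Of the 172 Ccnd1 UMIs under lenvatinib, 47.1% came from 5 of 192 cells, and of the 149 under combo 45.0% came from 5 of 432 cells. The 8 dendritic cell markers, led by H2-Ab1, summed to 2646 CPM in this gate under lenvatinib and 850 CPM under combo, with Flt3 at 0 by the gate and the other 7 detected, and their part in the Ccnd1 difference was not tested. In cells with C1qa, a macrophage gene, Ccnd1 was at 34.2 and 32.2 CPM, a ratio of 0.942 (0.308 to 2.88), and in cells without it at 182 and 46.2 CPM, a ratio of 0.255 (0.202 to 0.321).

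In B-gated cells the lowest ratio was that of Cdk6, at 0.214 (0.149 to 0.302). It was 0.526 when other markers were allowed in the gate. Of its 146 UMIs under lenvatinib, 16.4% came from 1 cell, against 6.82% of 44 UMIs under combo. In B-gated cells without UMIs of Cd3d, Cd3g, Trac, Trbc2 and Lck, Cdk6 was at 43.6 and 14.1 CPM, a ratio of 0.324 (0.188 to 0.541). Ccnd2 and Cdkn1a passed 1.5-fold in this subset and not over the whole gate. Ccnd2 was at 0.431 (0.333 to 0.555), against 0.773 over the whole gate, and Cdkn1a at 1.92 (1.15 to 3.31), against 1.32. Ccnd1 was at 2.68 (1.34 to 5.82), against 0.828 over the whole gate. Its 11 and 37 UMIs in the subset were too few to evaluate by the minimum used for gates. No share of all genes past 1.5-fold is given for this subset. The 7 T cell markers, led by Trbc2, summed to 217 and 164 CPM in the whole B gate, with Cd3e at 0 by the gate, and 4 hemoglobin genes to 2701 and 7.47 CPM. Rb1 was lower in B-gated (0.665, 0.520 to 0.849), neutrophil-gated (0.596, 0.447 to 0.803) and dendritic-gated cells (0.572, 0.423 to 0.770). These calls were not stable over the 10 settings tried. The ratio stayed past 1.5-fold in 4 settings in B-gated cells, with a highest value of 0.892 relative to the median of all genes, in 7 in neutrophil-gated cells, with a highest of 0.869 in the same way, and in 9 in dendritic-gated cells, with 0.688 when other markers were allowed.

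T-gated cells were the largest gate. Apart from Cdkn2c, the ratios of their 9 other genes ran from 0.806 (Rb1) to 1.33 (Cdkn1a), and Cdk4 and Cdk6 stood at 1.06 (1.003 to 1.13) and 0.844 (0.804 to 0.885). In non-cycling T-gated cells none of the 10 genes passed 1.5-fold, while 5.4% of 11658 genes were at least 1.5-fold higher and 12% at least 1.5-fold lower. T-gated cells were also split by Cd8a and Cd4. Cells with Cd8a and without Cd4, markers of cytotoxic T cells, were 2823 and 2025, and Cdkn1a was at 27.0 and 48.1 CPM in them, a ratio of 1.78 (1.59 to 1.99), whereas cells with Cd4 and without Cd8a, 499 and 440, held 78.6 and 76.9 CPM, a ratio of 0.978 (0.8 to 1.19). Cdk6 was at 127 and 123 CPM in the Cd8a subset, a ratio of 0.973 (0.915 to 1.03), and at 184 and 112 CPM in the Cd4 subset, a ratio of 0.607 (0.521 to 0.705). Ccnd2 had ratios of 1.03 (0.993 to 1.06) and 0.703 (0.649 to 0.762) in the same order. Ccnd1 passed 1.5-fold in opposite directions. It was at 3.58 and 6.57 CPM in the Cd8a subset, a ratio of 1.84 (1.34 to 2.52). In the Cd4 subset it was at 28.8 and 12.5 CPM, a ratio of 0.435 (0.276 to 0.669). Cdkn2c was lower under combo in both, at ratios of 0.560 and 0.445. Whether the subsets differ from each other was not tested, with 1 library a condition. Cells with Foxp3, which were 7.50% and 1.5% of the T gate, were not removed from these subsets. Their part in the ratios of the Cd4 subset was not tested.

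T-gated cells with Foxp3, the factor that defines regulatory T cells, numbered 388 under lenvatinib and 57 under combo, or 7.50% and 1.5% of the gate, against 0.957% and 0.204% of NK-gated cells with a Foxp3 UMI. Cdk6 was at 172 and 153 CPM in them, a ratio of 0.889 (0.646 to 1.2), Ccnd2 at 592 and 450 CPM, a ratio of 0.759 (0.635 to 0.902), and Cdkn1b at 269 and 272 CPM, a ratio of 1.01 (0.797 to 1.27). Cells of the T gate without Foxp3 held less of each in both libraries, at 128 and 110 CPM of Cdk6, 470.2 and 437 CPM of Ccnd2, and 158 and 151 CPM of Cdkn1b, although for Ccnd2 under combo the values were within counting error. Ccnd1 had a ratio of 10.7 (4.89 to 24.4) in the Foxp3 subset, and 16 of its 18 UMIs under combo came from 1 cell, against 4 of 12 under lenvatinib.

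**Figure D5:**
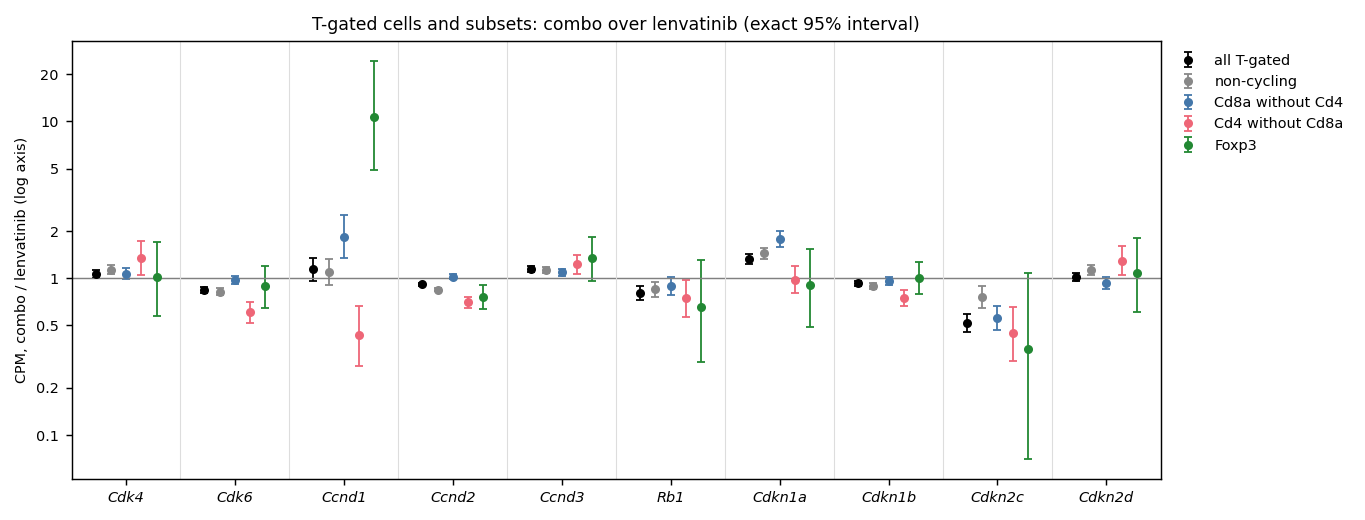
Ratio of CPM, combo over lenvatinib (log axis), for the 10 genes in all T-gated cells and in 4 overlapping subsets of them, with exact 95% intervals of the counts. Cdkn2c lies below 1 in each, at 0.520 in all T-gated cells and 0.760 in non-cycling ones, and Cdkn1a stands at 1.78 in the Cd8a subset and 0.978 in the Cd4 subset.

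Over all cells kept, without gates, some ratios were unlike those within gates. Cdkn1a was at 74.8 CPM under lenvatinib and 141 CPM under combo, a ratio of 1.88 (1.83 to 1.94), although no gate exceeded 1.33. Cdkn2d was at 78.2 and 126 CPM, a ratio of 1.61, Ccnd2 at 400.3 and 266 CPM, a ratio of 0.664, and Cdkn2c at 27.4 and 11.7 CPM, a ratio of 0.426. Cdkn1a and Cdkn2d were highest in myeloid and dendritic gates and Ccnd2 in T- and NK-gated cells. Neutrophil-gated cells were 4.80% of cells under lenvatinib and 12.6% under combo, NK-gated cells 17.7% and 8.45%, and cells with both Csf1r and Csf3r, which no gate holds, numbered 291 and 999. In all cells with several markers Cdkn1a was at 100.2 and 197 CPM.

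Other genes of the pathway were described in T-gated cells from lists. Of 30 partners of the G1/S transition, 2 were at least 1.5-fold higher under combo and 14 lower, with a median log2 ratio of -0.50. Over all genes of T-gated cells 5.85% were higher and 13.5% lower, with a median of -0.15. The lowest were E2f7 (7.16 and 2.15 CPM, ratio 0.300) and E2f8 (8.27 and 2.52 CPM, 0.305), both repressors of the E2F family, and Ccna2 (28.0 and 8.43 CPM, 0.301), the cyclin of S phase. The 2 higher genes, named after their values were seen, were the inhibitor genes Cdkn2b (0.807 and 1.49 CPM, 1.84) and Cdkn1c (2.45 and 4.63 CPM, 1.89). Of 20 E2F target genes none was higher and 14 were lower, with a median of -0.69, against the same 5.85%, 13.5% and -0.15 over all genes. Uhrf1 (50.1 and 15.4 CPM, 0.308), Rrm2 (36.6 and 11.5 CPM, 0.314), a subunit of ribonucleotide reductase, and Cdc6 (9.58 and 3.06 CPM, 0.319), a replication licensing factor, were the lowest. In non-cycling T-gated cells 2 of 29 evaluated partners were higher and 4 lower, a share near the 5.4% and 12% of all genes, and 4 of 20 E2F targets were lower and none higher. The medians there were -0.21 and -0.31, against -0.14 over all genes.

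Of 11 evaluated p53 target genes none passed 1.5-fold either way, while 5.85% and 13.5% of all genes did. Their median was -0.33, against -0.15 over all genes, and -0.01 in non-cycling T-gated cells, against -0.14. Btg2, an antiproliferative gene, was at 422 and 631 CPM (1.49), Ccng1 at 56.6 and 38.2 CPM (0.674) and Sesn2 at 7.38 and 5.16 CPM (0.700). Of the 5 evaluated genes of a list on the signalling cascade that the study follows in tumor cells none passed it, with a median of -0.45, and Ctnnb1, which encodes β-catenin, was at 75.7 and 53.5 CPM (0.707) and Axin2 at 15.1 and 11.1 CPM (0.734).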

How the data were processed

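For each library the authors deposited a matrix of UMI counts without normalization, from reads mapped to mm10. Cell Ranger 5.0.1 is named in the submitters' processing notes, and the matrix header names 6.0.1. The limits on genes (6000) and mt- UMIs (25%) are those of the study's methods. UMIs were summed per gate and library with Python 3.11.15 and scipy 1.17.1 and given as CPM of all UMIs of the gate. Ratios carry exact conditional 95% intervals, which with the Poisson and Clopper-Pearson intervals cover counting error only. Cells are not replicates, and no p-value or standard error was computed. No doublet caller was run, and cells with several gate markers were left out. Gene coordinates are from GENCODE vM21. The steps were tested on simulated data.

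The 10 genes, the gates and the gene lists were chosen with earlier results of these data known. All 10 are named. Of each pathway list the 3 genes with the largest absolute log2 ratio among those with at least 50 UMIs are named, and for each of the 10 the 3 genes with the highest Pearson r. One gene that this rule names is not reported here. The counts of directions over all types and profiles, with minimums of 20 and 10 UMIs, were added after values had been seen.

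The 2 libraries share 49 barcodes, which were kept. Alternatives covered the cell filter, gate, CPM total, cycling call, fold, count minimum and thinning.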

Additional observations from a re-analysis of the deposited data

How the results depend on the processing

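No paired analysis was possible because each condition is 1 library. Each of the 60 ratios of combo to lenvatinib was recomputed under 10 settings, and 489 of the 600 values moved by less than the counting interval. In all, 52 of the 600 lay on the other side of 1 from the value reported, 14 of them when taken relative to the median of all genes. Among the pairs past 1.5-fold this happened once, for Cdkn2c in neutrophil-gated cells, at 1.40 with at least 2 UMIs of the gate marker. The count of higher pairs, 2, was 6 with at least 2 UMIs of the gate marker, 5 relative to the median of all genes, 0 at 2-fold and 9 at a looser fold limit. The count of lower pairs, 12, was 6 at 2-fold and 23 at the looser limit, and 11 without the shared barcodes, an alternative chosen after seeing the data. Genes at least 1.5-fold higher in cycling T-gated cells, 2, were 1 with at most 4000 genes and 10% mt- UMIs, 1 without the 5% of cells with most UMIs, 1 when at least 1 mitosis gene called a cell cycling, 4 when at least 3 did, 1 with S-phase genes in their place and 4 when calls were made on thinned cells. Genes lower there, 0, were 1 with the stricter filter (Ccnd1), 1 with other markers allowed (Ccnd2), 1 without the deepest cells (Ccnd1), 1 with mt-, ribosomal protein and hemoglobin genes out of the total (Ccnd2), 1 with at least 3 mitosis genes (Ccnd2) and 2 on thinned cells. No share of all genes is given for these other settings, so their counts of pairs and genes cannot be set against a background. The ratio of cycling shares in T-gated cells, 0.280, was 0.362 with other markers allowed, 0.222 without the deepest cells, 0.510 with at least 1 mitosis gene and 0.731 with S-phase genes. The median share of cells with a UMI over genes, types and libraries, 11.8% at 2000 UMIs, was 6.50% at 1000 UMIs and 28.4% without thinning. The causes were not tested. Monocyte/macrophage and dendritic gates hold at most 432 cells, so single cells weigh on their values, and 1 library per condition leaves all differences without a replicate check.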

Other observations

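Cells without any of the 6 gate markers, 2535 under lenvatinib and 1449 under combo, were in no gate and entered only the values over all cells. Ccnd1 was at 111 and 128 CPM in them, above its level in T-, NK-, B- and neutrophil-gated cells of both libraries. Ccnd2 was at 394 and 248 CPM, Cdk6 at 113 and 87.8 CPM, Cdkn2c at 22.1 and 13 CPM, and Cdkn2d at 79.5 and 141 CPM.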
